A study of Mus musculus with 12 samples.

Results

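Retained-intron transcripts are annotated isoforms of a gene that keep intronic sequence which other transcripts of the gene remove. They were defined here as the transcripts that GENCODE M1, the mouse gene annotation on the mm9 genome build, gives the type retained_intron. The abundance table held 11290 exon rows and 11278 intron rows of such transcripts, which is 22568 of its 213131 rows, from 5125 genes. An exon row is the summed exonic abundance of 1 transcript, and an intron row is the abundance over the introns that the same transcript removes. The genes also had 16177 exon rows of protein-coding transcripts, and 5065 genes had both kinds. A gene held a median of 2 retained-intron transcripts, 2318 genes held 1, and the translation factor gene Eif4a2 held the most, with 15.

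The RNA came from mouse embryonic stem cells (mESCs), cultured pluripotent cells, of the XY line DTCM23/49 grown on gelatin with leukemia inhibitory factor. All 12 libraries came from cells that had received 200 µM of the uridine analog 4-thiouridine (4sU), which cells incorporate into new RNA, for 15, 30 or 60 min. At each time, labeled RNA (biotinylated and pulled down, so enriched for RNA made during labeling) and total RNA were sequenced in 2 biological replicates, giving 6 labeled and 6 total RNA libraries. The replicates came from 1 culture that had been split and passaged apart, so the spread between them covers less than independent cell lines would. No library came from cells without 4sU.

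Most mammalian introns are removed within minutes of their transcription, often while the RNA is still being made. Introns that stay in a polyadenylated RNA can hold it in the nucleus until they are spliced or the RNA is degraded, or can send it to nonsense-mediated decay in the cytoplasm. Retained introns are known as a layer of control for genes of RNA processing, among them SR proteins and the CLK kinases that phosphorylate them. A read from the kept intron of such an isoform has the same sequence as a read from an unspliced precursor of the gene, so the sources cannot be told apart in these values.

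Of the 11290 retained-intron transcripts, 3564 (31.6%) held at least 1 whole intron of a protein-coding transcript inside 1 of their exons, and the other 7726 did not. All but 49 had at least some exonic sequence outside the coding exons of their gene. The median retained-intron transcript had 3 exons and 817 exonic bases, against 9 exons and 1986 bases in protein-coding transcripts of the same genes. A median of 39.3% of its exonic length (quartiles 20.6% and 60.0%) lay outside every protein-coding exon of the gene. The share was over 80% in 862 transcripts, among them 92 of genes with no protein-coding transcript in the values, which were set at 100%. It is used below as a measure of how much of a retained-intron transcript lies apart from coding exons. Exons of other non-coding transcripts of the gene were not subtracted, so this sequence need not be unique to 1 isoform.

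The wholly retained introns were short. By definition each had to fit whole inside 1 exon of a retained-intron transcript, which had a median of 817 exonic bases. Long introns could therefore qualify less easily, and the part of this rule in the lengths below was not tested. The 4585 retained introns had a median length of 242 bases, whereas the 72496 other introns of protein-coding transcripts of the same genes had a median of 1379. Introns of up to 300 bases made up 57.2% of the retained and 18.2% of the other introns. Of the retained introns, 4288 lay between coding exons, 260 in 5′ and 37 in 3′ untranslated regions. The median GC content was 52.1% in retained and 45.6% in other introns, but within a length class the difference was small, with 57.1% against 54.8% in introns of up to 150 bases and 49.2% against 48.1% in those of 300 to 1000 bases. Almost all introns of either kind began with GT and ended with AG on the transcribed strand, 97.7% of the retained and 98.7% of the others. The 5 letters GTAAG at the intron start were found in 20.3% of the retained and 28.1% of the other introns, and GTGAG in 30.1% and 26.2%. These are descriptions of an annotation, with no test, and introns of 1 gene are not independent.

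**Figure D1:**
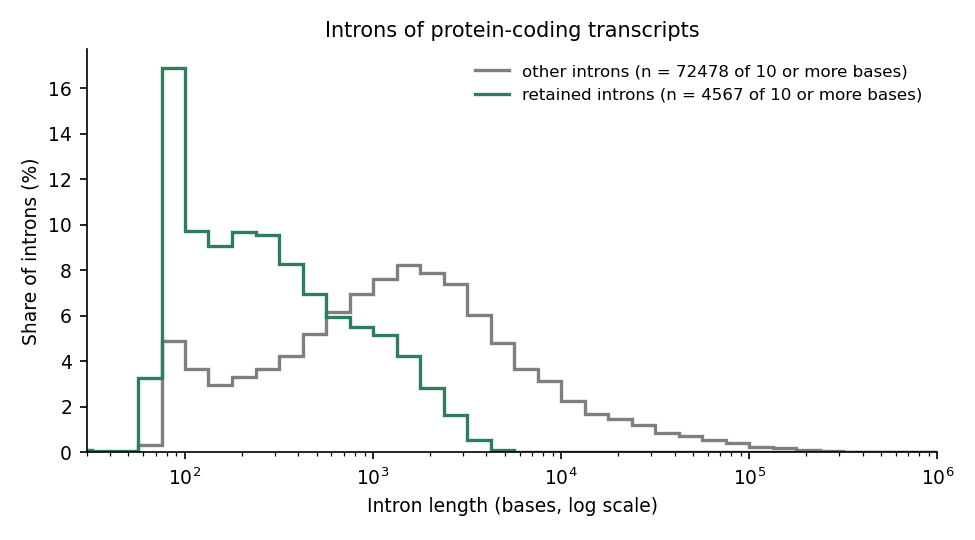
Lengths of introns of protein-coding transcripts in genes with retained-intron transcripts, as the share of introns (y axis, %) in each length class (x axis, bases, log scale), for introns held whole by a retained-intron transcript (green) and all others (grey). The tallest class is 75 to 100 bases for the retained introns and 1334 to 1778 for the others, and the medians are 242 and 1379.

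Whole retained introns are shown for 5 named genes. They are those of the only gene whose retained-intron class was lower in labeled RNA (Rint1), of 2 of the most abundant retained-intron transcripts (Gapdh, Ppia) and of 2 genes whose class was higher in labeled RNA (Tacc3, Rrm2). All lie between coding exons and are given in mm9, 5′ to 3′ on the transcribed strand, with 3 exon bases on either side. Capitals mark the first 2 and last 2 bases of the intron.
Rint1, intron 7 of 13, 74 bases, chr5:23315713-23315786, plus strand: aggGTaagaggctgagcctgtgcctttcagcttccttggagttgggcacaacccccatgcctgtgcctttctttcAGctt
Gapdh, intron 5 of 6, 84 bases, chr6:125112412-125112495, minus strand: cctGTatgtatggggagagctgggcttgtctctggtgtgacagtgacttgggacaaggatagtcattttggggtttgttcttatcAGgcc
Ppia, intron 2 of 4, 94 bases, chr11:6318135-6318228, plus strand: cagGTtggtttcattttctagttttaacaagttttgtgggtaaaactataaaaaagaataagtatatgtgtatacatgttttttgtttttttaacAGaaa
Tacc3, intron 2 of 14, 136 bases, chr5:34004034-34004169, plus strand: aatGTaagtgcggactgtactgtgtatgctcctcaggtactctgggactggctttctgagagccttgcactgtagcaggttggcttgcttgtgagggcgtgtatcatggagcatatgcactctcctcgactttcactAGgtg
Rrm2, intron 3 of 9, 239 bases, chr12:25393951-25394189, plus strand: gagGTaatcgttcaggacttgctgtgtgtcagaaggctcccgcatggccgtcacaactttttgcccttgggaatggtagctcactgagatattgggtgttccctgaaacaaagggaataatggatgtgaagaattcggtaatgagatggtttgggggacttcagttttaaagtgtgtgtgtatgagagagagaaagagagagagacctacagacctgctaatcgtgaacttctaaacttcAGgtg
All 5 begin with GT and end with AG, and those of Rint1 and Tacc3 begin with GTAAG. Their GC content ran from 23.4% in Ppia to 55.4% in Rint1. The bases that these introns add are 2.20% of the exonic length of the Rint1 transcript, 14.9% of that of Gapdh, 13.9% of Ppia, 15.3% of Tacc3 and 32.7% of Rrm2.

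Abundances were length-normalized values with nearly the same sum in every library, about 20 times that of TPM, an abundance scaled per transcript length and library size. The values keep no record of the depth of each library, for which the study's methods give an average only, and no counting error can be given. Of the retained-intron exon rows, 10572 had a value in at least 1 library, 718 had none and 8000 had one in every library. In total, 5251 exon rows of 2566 genes reached the mean of 20 (about 1 TPM) needed for testing, 250 of them only through their labeled and 98 only through their total libraries. The mESC label held: all 8 markers of embryonic stem cells were above 20, led by Dppa5a with a mean of 6766 in total RNA. Of the fibroblast markers, which feeder cells would supply, Thy1 reached 38.6, while the other 4 were under 20 and Col3a1 was listed at 0. Of 4 endoderm, 3 mesoderm and 3 trophectoderm markers none reached 20. Pax6 and Nes, which mark neural cells, had means of 48.3 (SD 47.4) and 31.9 (SD 4.76) in total RNA, so the level of Pax6 differed widely between libraries.

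A pair of labeled libraries stood apart from the rest. Introns of all transcripts made up 14.8% of the signal in labeled RNA of replicate 1 at 15 min, 13.9% at 60 min, and 9.35% and 10.8% in the 2 replicates at 30 min. In labeled RNA of replicate 2 at 15 and 60 min they made up 7.24% and 6.99%, inside the range of total RNA (6.53% to 7.41%). Both are labeled RNA by their labels, and whether they hold newly made RNA to the extent of the other 4 cannot be told from these values. Whether their pull-down failed or libraries were exchanged was not tested. Results are therefore also given without these 2 libraries, a choice made after their values had been seen.

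Retained-intron isoforms took a larger part of their genes in 4 of the 6 labeled libraries. Over genes tested for both kinds, the median share of retained-intron signal in the sum of retained-intron and protein-coding signal was 36.8 ± 2.14% in labeled RNA and 34.4 ± 0.455% in total RNA (SD, n = 6 libraries each). The 2 labeled libraries with little intronic signal, at 34.6% and 34.4%, lay within the total RNA range of 33.9% to 35.0%, and the other 4 lay above it, from 36.2% to 39.3%. Among isoforms with over 80% of their length outside coding exons, the median share of the gene was 5.25% and 5.56% in those 2 libraries, 7.16% to 11.3% in the other labeled libraries and 5.33% to 5.95% in total RNA. This median covers 299 isoforms, and of 300 such isoforms tested 252 reached the needed mean in both kinds of RNA. Of the 2735 genes in the median over genes, 2581 did so. No medians without the others are given, so the part of this filter in both medians was not tested. The share of a library's exonic signal held by all retained-intron transcripts overlapped between labeled (6.80% to 8.30%) and total RNA (7.27% to 8.32%). Their share of intronic signal did not overlap, at 10.5% to 11.4% in labeled and 9.59% to 10.1% in total RNA. Intronic signal differed between the labeled libraries, and its part in the results below was not tested.

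**Figure D2:**
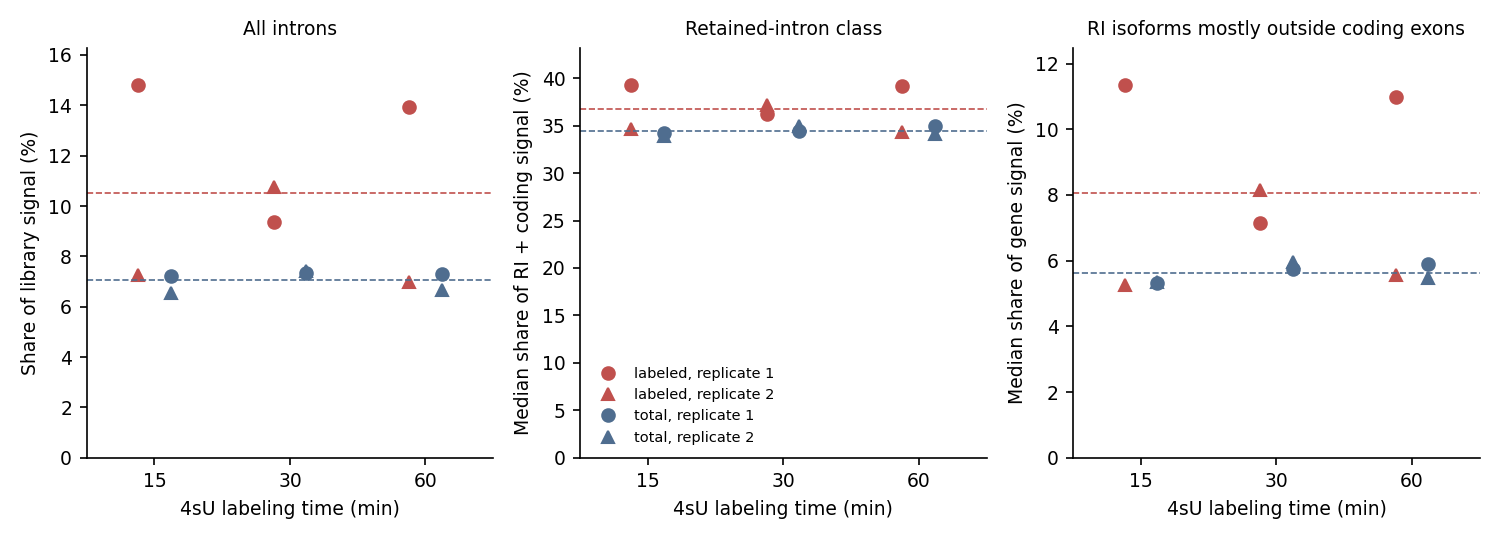
Values of the 12 libraries by 4sU labeling time (x axis, min): the share of all signal that is intronic (left, %), the median over genes of the share of retained-intron (RI) signal in RI plus protein-coding signal (middle, %), and the median share of the gene held by RI isoforms with over 80% of their length outside coding exons (right, %). Dashed lines are the means of 6 libraries. Labeled replicate 2 (red triangles) at 15 and 60 min lies among the total RNA libraries (blue) or, at 5.25% in the right panel, just below them.

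Compared as single transcripts, retained-intron isoforms were called in both directions, and protein-coding isoforms of the same genes mostly lower in labeled RNA. Labeled and total RNA were compared with limma on log2(value + 1) and Benjamini-Hochberg adjustment over all 45537 exon rows tested, of which 5.28% were called higher and 12% lower in labeled RNA at an adjusted p of 0.05. Of 5251 retained-intron rows 326 (6.21%) were called higher and 408 (7.77%) lower, with a median log2 difference of -0.06 beside -0.09 over all rows. Of the 5251 rows 250 reached the minimum mean of 20 through labeled RNA alone and 98 through total RNA alone. Among the 4903 that reached it in both, a count added after seeing the data, 255 (5.20%, beside 4.22% of all rows) were higher and 398 lower, with a median of -0.07 beside -0.11. Of 8503 protein-coding rows of the same genes 155 (1.82%) were called higher and 1517 (17.8%) lower, with a median of -0.20. Of 1836 isoforms annotated for nonsense-mediated decay 46 were higher and 252 (13.7%) lower, with a median of -0.14. Without the 2 labeled libraries the retained-intron counts were 652 higher (12.4%, beside 11.6% of all rows) and 583 lower (11.1%, beside 16.3%). With labeling time and replicate number as a block they were 201 and 194 (3.69% lower), where 3.70% of all rows were higher and 6.12% lower. Single libraries that moved the count of higher transcripts by over 1.5 times were both labeled (199 and 186 without replicates 1 and 2) and both total libraries (213 and 208) at 30 min and labeled replicate 2 at 60 min (492). For the count of lower transcripts they were labeled replicate 1 at 15 min (253) and 60 min (628), both labeled libraries at 30 min (243 and 228), and the total libraries of replicate 1 at 15 min (234) and of replicate 2 at 30 min (235) and 60 min (264). The values are of bulk RNA, in which each level is an average over the cells of a culture.

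Of the retained-intron transcripts of the 6 most abundant genes, that of Hsp90aa1 alone was called in exonic abundance, lower in labeled RNA. These models share most of their length with coding exons, so RSEM had to divide the same reads between isoforms, and for Gapdh, Ppia, Rpl23a and Hsp90aa1, which have processed pseudogenes, also between loci, which makes their levels uncertain. The retained-intron transcript of Hsp90aa1, a cytosolic chaperone, had the highest level, with 10.5% of its length outside coding exons. Its exonic abundance was 41100, 42067 and 44793 (lowest, median, highest) in labeled and 55667, 59664 and 61897 in total RNA. The groups did not overlap, and it was lower in labeled RNA by a log2 difference of -0.48 (SE 0.0784, limma adjusted p = 0.00312, lower in 6 of 6 pairs). The protein-coding sum of the gene was 66020 to 91190 in labeled and 74915 to 113809 in total RNA, with overlap, and the retained-intron share of the gene was 49.5% in labeled and 51.7% in total RNA at the median, with overlapping ranges.

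For Gapdh, a glycolytic enzyme, the transcript holding the 84-base intron had medians of 32398 in labeled and 35925 in total RNA, which overlapped (log2 difference -0.18, limma adjusted p = 0.202). The retained-intron share was 36.7% and 33.3% at the median, a within-gene log2 difference of 0.25 that did not pass (limma adjusted p = 0.177). Ppia, the prolyl isomerase cyclophilin A, gave 66.2% and 66.4%, and Atp5b, the catalytic subunit of ATP synthase, 70.0% and 69.5%. Nop56, a core protein of box C/D snoRNPs whose introns host snoRNAs, gave 55.0% and 55.2%. Its retained-intron transcript had medians of 16851 in labeled and 11359 in total RNA and was not called (limma adjusted p = 0.0724). Of 6 labeled libraries 5 lay above every total library, the highest of which was at 14120. The largest value, 29159, came from labeled replicate 2 at 60 min, 1 of the pair that stands apart. The coding sum of Nop56 was 25890 to 39047 in labeled and 19917 to 25834 in total RNA, without overlap. Rpl23a, a protein of the large ribosomal subunit, was at 57.8% to 61.3% in labeled and 53.0% to 57.0% in total RNA, without overlap, and did not pass (log2 difference 0.18, limma adjusted p = 0.154). None of the 6 most abundant genes was called in the comparison within genes with all libraries, and Gapdh was called without the 2 labeled libraries (log2 difference 0.26, limma adjusted p = 0.0463).

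Set against their own genes, the retained-intron isoforms that were called were mostly higher in labeled RNA. In the isoform proportion test each transcript was set against the sum of its gene, and 0.603% of all 28027 transcripts were called higher and 0.503% lower (limma, Benjamini-Hochberg). Of 5250 retained-intron transcripts 89 (1.70%) were higher and 7 (0.133%) lower, while of 8503 protein-coding ones 14 were higher and 68 lower. Among retained-intron transcripts that reached the mean needed for testing, 250 did so through labeled RNA alone and 98 through total RNA alone. Such transcripts enter this test in every setting, and no proportion counts without them are given. The part of this filter in the counts was therefore not tested. The 7 lower ones were transcripts of Rint1, Mrpl38, Srpk1, Qtrtd1, Srsf3, Ckmt1 and Poglut1, with log2 differences from -0.22 to -0.46. Srpk1 encodes a kinase of SR proteins and Srsf3 an SR protein, and these genes are named because the count is small. Without the 2 labeled libraries 447 retained-intron transcripts (8.51%, beside 2.96% of all) were higher and 63 (1.20%) lower, beside 840 of all 28027 lower. With the block 3 were higher and 0 lower, where 0.0143% of all transcripts were higher and 0.0107% lower. Leaving out any 1 of the 12 libraries moved the 89 by over 1.5 times, to 239 without labeled replicate 2 at 15 min, 140 without labeled replicate 2 at 60 min, and 1 to 47 without any of the other 10.

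**Figure D3:**
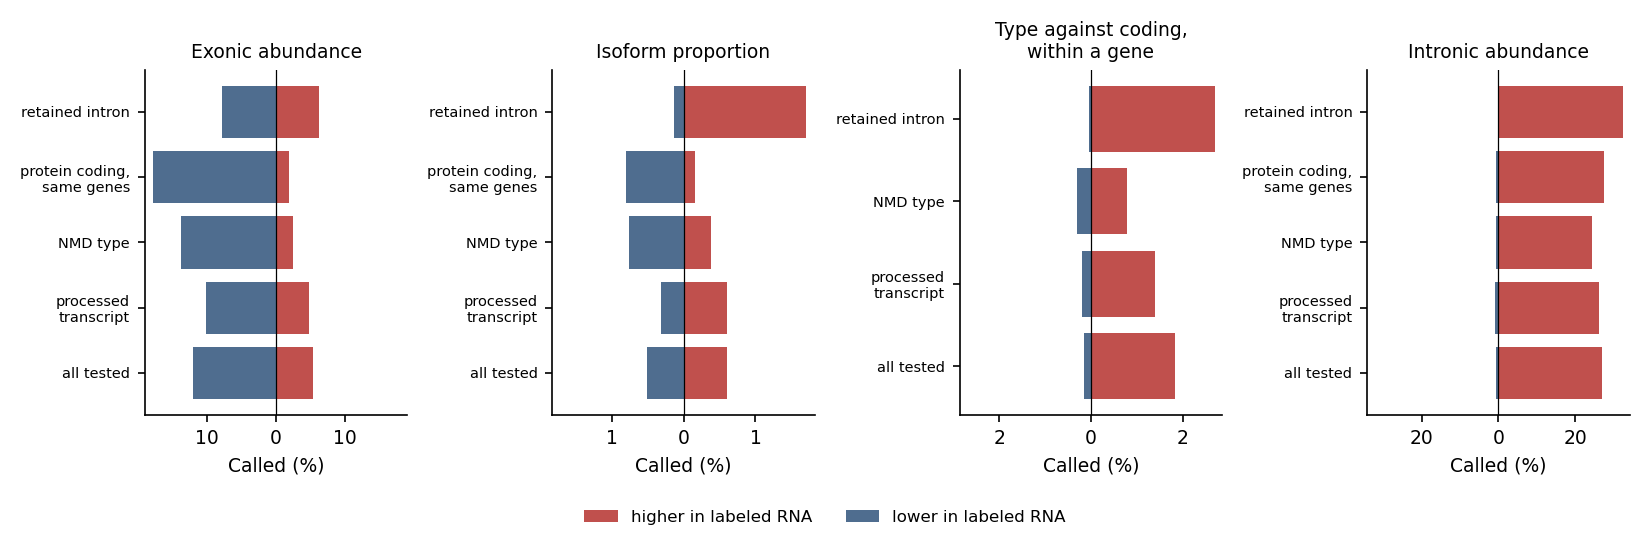
Share of features (x axis, %) called higher (red, right of 0) or lower (blue, left of 0) in labeled RNA by limma at an adjusted p of 0.05, by transcript type and over all features tested, in the 4 comparisons of labeled with total RNA. Retained-intron transcripts have the longest red bar in each panel, 6.21%, 1.70%, 2.71% and 32.6%, and protein-coding transcripts of the same genes the longest blue bar for exonic abundance, 17.8%.

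The isoforms with the largest share of their length outside protein-coding exons had the largest median difference. Of 1357 tested transcripts with up to 20% of their length outside coding exons 47 were higher and 161 lower in exonic abundance, with a median log2 difference of -0.15. From 20% to 40% the median was -0.12, from 40% to 60% it was -0.05 and from 60% to 80% it was 0.07, with 92 higher and 19 lower of 836. Of the 300 with over 80% outside, 59 were higher and 4 lower, with a median of 0.34 (quartiles 0.06 and 0.68). Over all exon rows tested 5.28% were higher and 12% lower, beside 3.46% and 11.9% in the lowest bin and 19.7% and 1.33% in the highest. Retained-intron transcripts with a mean of at least 20 in both kinds of RNA were counted after seeing the data. Their medians from the lowest to the highest bin were -0.16, -0.12, -0.06, 0.04 and 0.29. In that highest bin 41 of 252 (16.3%) were higher and 4 lower, where 4.22% of all such exon rows were higher. Of the 300, the 276 in genes with a protein-coding transcript had 47 higher and 3 lower, with a median of 0.33. Without the 2 labeled libraries the medians in the same order were -0.15, -0.10, 0.02, 0.23 and 0.67, so leaving them out moved the upper bins and left the lowest near its value. The isoform proportion followed the same order, with medians of -0.03, 0.02, 0.07, 0.19 and 0.34. These proportion medians include transcripts that reached the mean of 20 in 1 kind of RNA only, and no medians without them are given. Transcripts over 80% outside were also longer (median 2672 against 789 bases in the first bin) and less abundant (median 39.5 against 74.6), and the part of these in the trend was not tested. By the share of length in whole retained introns alone, the medians were -0.10 for 0%, -0.02 for up to 25%, 0.03 for 25% to 50% and 0.19 for over 50%.

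**Figure D4:**
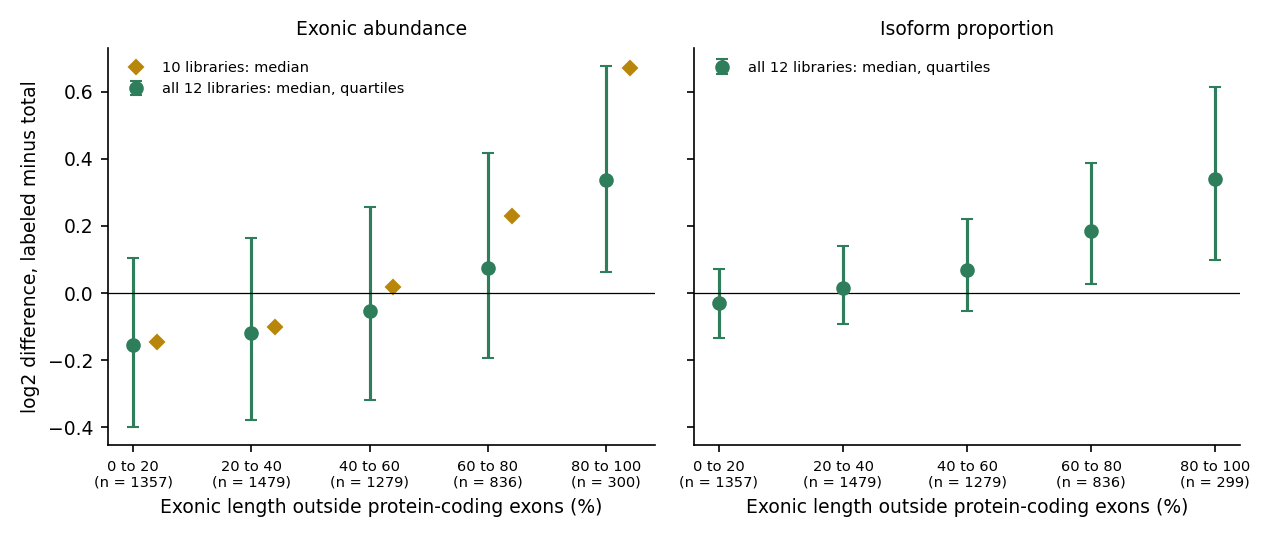
Log2 difference of labeled minus total RNA (y axis) of retained-intron transcripts by the share of their exonic length outside protein-coding exons (x axis, %), for exonic abundance (left) and isoform proportion (right). Green points are medians over transcripts with quartiles as bars, and gold diamonds are medians without labeled replicate 2 at 15 and 60 min. The green medians rise from -0.15 to 0.34 on the left and from -0.03 to 0.34 on the right.

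Summed per gene, the retained-intron class rose against the protein-coding class in 74 genes and fell in 1. Each gene's retained-intron sum was divided by its protein-coding sum, and other non-coding types of the same genes entered the same fit, in which 1.82% of all 6535 features were called higher and 0.153% lower in labeled RNA (limma, Benjamini-Hochberg). The class was tested in 2735 genes, so 2.71% were called higher. Its median log2 difference was 0.11, beside 0.06 over all features, and 72.5% of genes had a positive difference, beside 63.1% of all features. For comparison, 35 of 2512 processed-transcript features and 10 of 1277 of the nonsense-mediated decay type were called higher. In 13 of the 74 genes the retained-intron sum reached the mean of 20 through labeled RNA alone. Among the 2581 genes in which both sums reached it in both kinds of RNA, a count added after seeing the data, 59 (2.29%, beside 1.56% of all features) were higher and 1 lower, with a median of 0.11 beside 0.06. The 74 genes had log2 differences from 0.23 to 1.86 with a median of 0.76, and 73 of them were higher in 6 of 6 pairs. In 55 of the 74 all 6 labeled libraries lay above every total RNA library, as they did in 115 (4.20%) of the 2735 genes tested. The 74 were called on these same libraries, so neither the pairs nor this separation is further support. The most abundant retained-intron transcript of the 74 genes had a median of 53.4% of its length outside coding exons, against 32.7% over the genes tested.

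The count depended on single libraries. Without the 2 labeled libraries that stand apart, 390 genes (14.3%, beside 8.86% of all features) were higher and 12 (0.439%, beside 0.765%) lower. Of the 75 genes called with all libraries 74 were called again in the same direction. That fit reuses the other 10 libraries, and the 2 left out were chosen for intronic shares like those of total RNA. The repeated calls are therefore no independent support. Leaving out only 1 library gave 191 without labeled replicate 2 at 15 min, 129 without labeled replicate 2 at 60 min and 6 to 20 without any of the other 10. With labeling time and replicate number as a block, 9 genes were higher and 0 lower, where 0.199% of all features were higher and 0.0306% lower. The 9 included Rrm2, Ubfd1, Gys1 and Hnrnpl, and 2 of them, Jmjd4 and Mboat7, had a retained-intron sum that reached the mean of 20 through labeled RNA alone.

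Rrm2, the small subunit of ribonucleotide reductase, which makes deoxyribonucleotides for DNA synthesis, has 1 retained-intron transcript, which holds the 239-base intron shown above. Its share of the gene was 10.1%, 17.6% and 25.3% (lowest, median, highest) in labeled and 3.78%, 5.96% and 8.61% in total RNA. The groups did not overlap, and the within-gene log2 difference was 1.68 (SE 0.292, limma adjusted p = 0.0309, 0.0424 with the block). Its transcript rose, with medians of 197 and 72.4, whereas the coding sum had medians of 907 and 1116. Ubfd1 had the smallest adjusted p among the 8 largest differences, 0.00853 by limma and 0.0251 with the block, with a log2 difference of 1.64 (SE 0.206). Its share was 25.6% to 44.7% in labeled and 11.6% to 19.6% in total RNA, again without overlap. Its retained-intron sum was 43.0 to 110 in labeled and 33.9 to 76.5 in total RNA, with overlap, and the coding sum was 81.0 to 192 and 242 to 343, without overlap. The most abundant retained-intron transcript of the gene did not pass by itself (log2 difference 0.54, limma adjusted p = 0.130).

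Nucb1, a calcium-binding protein of the Golgi, had the largest difference, 1.86 (SE 0.333, limma adjusted p = 0.0309, 0.0880 with the block). Its share was 30.6%, 52.1% and 60.3% in labeled and 14.3%, 21.2% and 32.9% in total RNA. Its retained-intron sum entered through labeled RNA alone, with a total RNA mean under 20. Labeled replicate 2 at 60 min lay below the highest total library and the other 5 labeled libraries above all of them. Prdx6, a peroxidase, stood at 8.84% to 20.9% in labeled and 3.79% to 7.97% in total RNA (log2 difference 1.70, limma adjusted p = 0.0274, 0.0566 with the block). Tacc3, a protein of the mitotic spindle whose 136-base intron is shown above, stood at 5.89% to 19.2% and 1.75% to 5.84% (1.50, limma adjusted p = 0.0466). The ranges of these last 2 genes did not overlap, for Tacc3 by a narrow gap.

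Of the other large differences, 1110008F13Rik had a log2 difference of 1.68, Elk1, a transcription factor of the ETS family, 1.43, and Ogdh, a subunit of the 2-oxoglutarate dehydrogenase of the citric acid cycle, 1.34. The sums of 1110008F13Rik and Elk1 also had a total RNA mean under 20 and entered through labeled RNA alone. In Elk1 the retained-intron isoform was the larger part of the gene in labeled RNA, with a median of 55.6% against 29.4% in total RNA. Of the 8 genes, Ogdh alone had its 2 highest labeled shares, 16.9% and 20.2%, in the 2 libraries with little intronic signal. Without those libraries its log2 difference was 1.01, while those of the other 7 were between 1.67 and 2.19. Of the 8, Rrm2 and Ubfd1 kept an adjusted p under 0.05 with the block.

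Rint1, which acts in vesicle tethering between the Golgi and the endoplasmic reticulum, was the only gene whose retained-intron class was lower in labeled RNA. Its share was 20.9%, 22.8% and 23.9% in labeled and 24.4%, 31.7% and 34.0% in total RNA, without overlap. The log2 difference was -0.60 (SE 0.0998, limma adjusted p = 0.0283, 0.0597 with the block, lower in 6 of 6 pairs). The retained-intron transcript had similar levels in both kinds of RNA, with medians of 34.7 and 33.1, and the coding sum was 157 in labeled and 89.8 in total RNA at the median. Its transcript spans 14 exons and differs from the coding exons by 2.20% of its length, the 74-base intron shown above.

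**Figure D5:**
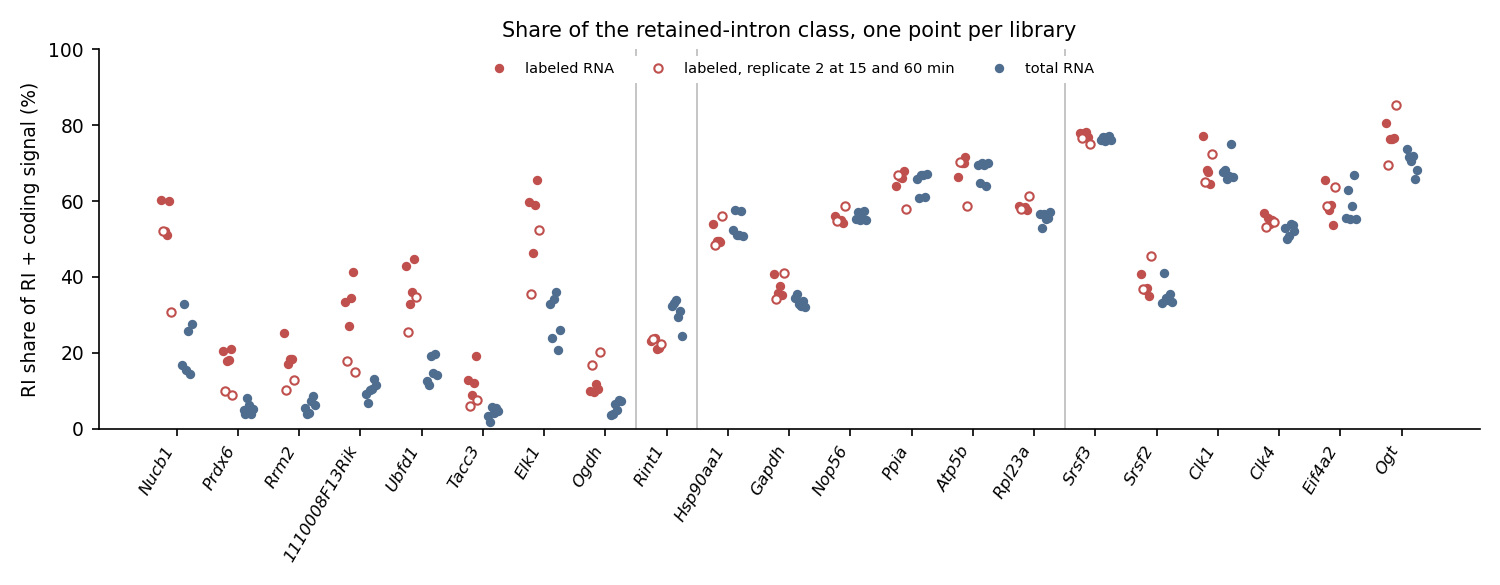
Share of retained-intron (RI) signal in the sum of RI and protein-coding signal (y axis, %), 1 point per library, for the 8 genes with the largest increase in labeled RNA, Rint1, the 6 most abundant genes and 6 genes of the RNA-processing lists. Open circles are labeled replicate 2 at 15 and 60 min. Labeled and total points are apart in Rrm2 and Ubfd1 and overlap in Srsf3 and Eif4a2.

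Over the tested genes of the SR protein, CLK, hnRNP and spliceosome lists, the shares of retained-intron signal ran from 3.09% in labeled and 3.28% in total RNA for Hnrnpa3 to 77.4% and 76.5% for Srsf3, at the median of the libraries. Of 16 genes of SR proteins and partners, 8 had retained-intron transcripts, and none of the 8 was called in the comparison within genes, where 2.71% of all retained-intron genes were called higher. All 8 differences were positive, as were 72.5% of those of all retained-intron genes, and their median log2 was 0.19 beside 0.11. Of the 3 retained-intron transcripts of Srsf3, 1 (ENSMUST00000144551) was at 1054 to 1750 in labeled and 614 to 949 in total RNA, without overlap (log2 difference 0.79, limma adjusted p = 0.00253, 0.0201 with the block). The most abundant one was at 3165 to 6160 and 4922 to 7202, with overlap, and did not pass (log2 difference -0.30, limma adjusted p = 0.256, 0.319 with the block). Its proportion of the gene was lower in labeled RNA, by a log2 difference of -0.22, and this call was lost with the block. Of the 23 retained-intron transcripts of SR genes tested 1 more was called, in Srrm1, which was lower (-0.64, limma adjusted p = 0.0165, 0.0564 with the block). These are 1 higher and 1 lower of 23, beside 6.21% and 7.77% of all retained-intron transcripts.

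The 3 CLK kinases with retained-intron transcripts, Clk1, Clk2 and Clk4, had within-gene log2 differences of 0.07, 0.25 and 0.15, none of which passed. Of their 16 isoforms 3 were higher in exonic abundance and none lower, 1 in each gene, beside 5.28% higher and 12% lower over all exon rows. With the block the Clk1 isoform kept its call (limma adjusted p = 0.0495) and that of Clk2 lost it (0.0722). That of Clk4 was at 325, 365 and 432 in labeled and 220, 266 and 299 in total RNA, without overlap (log2 difference 0.49, limma adjusted p = 0.0153, 0.0584 with the block). Detained introns are a kind of retained intron found in polyadenylated RNA of the nucleus. Of 7 genes known to hold them, none was called within the gene. Of their 34 isoforms 6 were higher and none lower in exonic abundance, beside 6.21% higher and 7.77% lower over all retained-intron transcripts. Of the 6, 4 were of Eif4a2, an RNA helicase of translation initiation whose introns host snoRNAs. The rest were the Clk1 and Clk4 isoforms already counted above among the CLK kinases. With the block 2 of the 6 were called higher, 1 of Eif4a2 and that of Clk1. Ogt, the enzyme that attaches O-GlcNAc, had a share of 69.4% to 85.3% in labeled and 65.7% to 73.8% in total RNA (log2 difference 0.56, limma adjusted p = 0.181, 0.00788 without the 2 labeled libraries). For Mdm2, the ubiquitin ligase of p53, the shares were 38.7% and 38.4% at the median.

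Of 8 hnRNP genes tested 1, Hnrnpl, was called higher, and of 9 spliceosome genes none, where 2.71% of all retained-intron genes were called higher. Of the hnRNP differences 5 were positive (median log2 0.04) and of the spliceosome ones 9 (0.17), beside 0.11 over all retained-intron genes. Of 23 hnRNP isoforms 2 were higher and 4 lower in exonic abundance, and of 18 spliceosome isoforms 0 and 1. Over all retained-intron transcripts 6.21% were higher and 7.77% lower. With the block 0 of the 2 and 2 of the 4 hnRNP isoforms were called. Hnrnpl, a splicing regulator that binds CA-rich RNA, is named because it was the only within-gene call of its list. Its retained-intron share was 54.1%, 58.4% and 61.9% in labeled and 45.3%, 48.0% and 49.4% in total RNA, without overlap (log2 difference 0.61, SE 0.0776, limma adjusted p = 0.00853, 0.0460 with the block). Of its isoforms 2 were higher and 3 lower in exonic abundance, and with the block 1 of these, which was lower, was called (limma adjusted p = 0.0322). Prpf8, a core protein of the spliceosome, had a retained-intron transcript that was lower in labeled RNA together with the coding ones. This model lies within coding exons except for 2.36% of its length, and its level fell from a median of 1071 in total to 606 in labeled RNA (log2 difference -0.79, limma adjusted p = 0.000752). The coding sum had medians of 3127 and 1699, and the retained-intron share was 25.5% and 26.3%, with overlapping ranges.

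Among other large families, of 41 ribosomal protein genes none was called within the gene (median log2 0.05), and 10 of 106 isoforms were higher and none lower in exonic abundance. Over all retained-intron transcripts 6.21% were higher and 7.77% lower, and with the block 7 of the 10 were called higher. They included Rps28 (medians 60.1 in labeled and 23.1 in total RNA), Rps19 (38.1 and 16.6) and 2 isoforms of Rpl27a (574 and 317, 848 and 574), all without overlap between the groups. The Rps19 transcript was tested through labeled RNA alone, with a total RNA mean under 20. Within the gene 2.71% of all retained-intron genes were called higher, and of 28 respiratory chain genes 1 was, Ndufb7, a subunit of complex I. Its share was 15.4% to 27.5% in labeled and 10.7% to 14.7% in total RNA (log2 difference 0.84, limma adjusted p = 0.0309, 0.0747 with the block). Its retained-intron sum reached the mean of 20 through labeled RNA alone. Of 54 isoforms of this family 9 were higher and none lower, and 3 of the 9 were called with the block, among them that of Ndufb7, which was also tested through labeled RNA alone. Of 18 translation factor genes and 20 proteasome genes none was called. The class was called higher without the 2 labeled libraries in Rps19 and Rps28, in Ndufb7, Atp5f1, Atp5o and Ndufa7 of the respiratory chain, in Eif2d, a translation factor, and in Psmd3 and Psmf1 of the proteasome list, and lower in no gene of these families. That is 2 of 41, 4 of 28, 1 of 18 and 2 of 20 genes, where 14.3% of all retained-intron genes and 8.86% of all features were called higher. Rps19 and Ndufb7 entered through labeled RNA alone. These genes are named because the counts are small. Isoforms of translation factor and proteasome genes were called in both directions, 4 higher and 7 lower of 55 in the former and 1 higher and 3 lower of 59 in the latter. The 4 higher ones were all of Eif4a2 and are those counted above among the genes known to hold detained introns. With the block 1 of the 4 and 4 of the 7 were called in translation factors, and 0 of the 1 and 1 of the 3 in the proteasome, where Psmd11 fell from a median of 523 to 299. Of 16 pluripotency genes with values none had a retained-intron transcript, and of 8 nonsense-mediated decay factors Smg6 alone had 1, with a median of 4.42 in labeled and 8.20 in total RNA, under the level needed for testing. Ribosomal proteins and Eif4a1 have pseudogenes, so their levels are uncertain.

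Of the intron rows of retained-intron transcripts that were tested, 32.6% were called higher in labeled RNA and 4 rows lower. Of 18384 intron rows of all transcripts 27% were called higher and 0.5% lower in labeled RNA (limma, Benjamini-Hochberg), and the median of all rows was shifted by a log2 value of 0.55. Of the 11278 intron rows of retained-intron transcripts 2160 were tested, 788 of which reached the needed mean only through labeled RNA. Of the 2160, 704 (32.6%) were higher and 4 lower, with a median of 0.66, against 1058 (27.5%) higher and 20 lower of 3845 rows of protein-coding transcripts, with a median of 0.54. A row that passed only through labeled RNA had to differ, so the rows that reached the mean of 20 in both kinds of RNA are given as well, a choice made after seeing the data. Of 1367 such retained-intron rows 381 (27.9%) were higher and 4 lower, with a median of 0.56, beside 20.5% higher and a median of 0.43 over all 12358 such rows. With each library centred on the median of all rows, 286 retained-intron rows were higher and 156 lower. No share of all intron rows is given for this setting, so these 2 counts are not compared with other introns. Without the 2 labeled libraries 1797 (83.2%, beside 79.5% of all) were higher and 8 (0.370%, beside 0.919%) lower. Leaving out labeled replicate 2 at 60 min gave 1157 and leaving out labeled replicate 2 at 30 min gave 462 higher.

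The 4 lower intron rows were those of transcripts of Luc7l, a protein of the U1 snRNP, Srsf1, an SR protein, the importin gene Kpna1 and Jarid2, a partner of the Polycomb complex PRC2. The introns of the Luc7l transcript were at 402, 411 and 446 in labeled and 723, 760 and 819 in total RNA, without overlap (log2 difference -0.86, SE 0.134, limma adjusted p = 0.00114, lower in 6 of 6 pairs). Those of the Srsf1 transcript were at 420, 981 and 1150 in labeled and 1032, 1505 and 1665 in total RNA, with 5 of 6 labeled libraries below every total library (limma adjusted p = 0.0440). Those of Kpna1 were at 34.1 to 82.4 in labeled and 84.4 to 279 in total RNA, without overlap (limma adjusted p = 0.00436). Those of Jarid2 were at 34.0 to 151 and 97.0 to 466, with overlap (limma adjusted p = 0.0297). With the block 3 retained-intron rows were called lower, and 2 without either labeled library at 30 min, so not all 4 calls held. These 4 are named because the count is small, and they stood against a general shift of introns in the other direction.

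The difference between labeled and total RNA was not called to change with labeling time. In the contrast of 60 with 15 min, 0% of 45537 exon rows and 0 of 5251 retained-intron rows passed with limma, with 402 and 53 at an unadjusted p under 0.05. At each of these times 1 of the 2 labeled libraries was of the pair that stands apart.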

How the data were processed

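RNA from mESCs was sequenced as labeled and total RNA with the Ovation RNA-Seq kit on an Illumina HiSeq. Using STAR v2.5.0, the authors filtered out rRNA reads and mapped what was left to exons and introns, and RSEM gave the abundances. The deposited signal values are length-normalized, sum to about 20 times TPM in every library and are missing where 1 or less, which was taken as 0. Neither this scaling nor strandedness is given in the sources used here. The methods state an average depth, and the depth of single libraries is unknown. The labels name mm10 and the paper mm9, and the deposited table holds no coordinates. Transcripts were matched by identifier to GENCODE M1 on mm9, which holds 83847 of 121429 exon rows (69.1%). Retained-intron types, structures and sequences come from it.

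limma 3.58.1 in R 4.3.3 was fitted across all features on log2(value + 1), with terms for RNA kind and labeling time, eBayes with a trend, a minimum mean of 20 and Benjamini-Hochberg adjustment at 0.05. The features were exon rows, intron rows, transcripts against the sum of their gene, and summed types against summed protein-coding transcripts. Log2 differences are understated at low values. The fits were tested on simulated data, and the outcome is not given here. The labels number the 2 biological replicates without saying more of what libraries of 1 number share. The correlation of deviations between the labeled and total library of 1 number and time was -0.0892 at 15 min, 0.0742 at 30 min and -0.300 at 60 min. The block therefore pairs libraries by their labels alone.

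Genes were named by rule: the 6 most abundant, up to 8 with the largest called difference within genes in each direction and the same sign in 6 of 6 pairs, and up to 3 most abundant per gene list. Genes named for a small count are said to be so. The members and lists were chosen with earlier results of these data known. Alternatives covered the pseudocount (20), the minimum mean (1 or 100), values in all 12 libraries, centring, the replicate block and libraries left out. Other steps used Python 3.11.15 with pandas 2.3.3, numpy 2.4.6 and matplotlib 3.10.9.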

Additional observations from a re-analysis of the deposited data

Results flagged for a closer look

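Of 94 groups of 6 libraries examined for a single library far from the others, 5 held one, and chance alone flags about 4.7 of 94. All concern the share of retained-intron signal in the sum of retained-intron and protein-coding signal of a gene. In labeled replicate 2 at 60 min, 1 of the libraries with little intronic signal, the share was 30.6% for Nucb1 (51.1% to 60.3% in the other labeled libraries), 7.43% for Tardbp (16.6% to 20.2%) and 61.3% for Rpl23a (57.8% to 58.6%). In total RNA of replicate 2 at 15 min it was 41.0% for Srsf2 (33.0% to 35.5% in the other total libraries). In total RNA of replicate 1 at 60 min it was 75.1% for Clk1 (65.7% to 68.3%).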

How the results depend on the processing

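Of 889 refits for single named genes 94 were called before and after, 105 lost a call, 687 were not called before or after, 3 gained a call and 0 reversed. Counts below are of retained-intron transcripts (exonic, proportion, intronic) or genes (class), higher and lower in labeled RNA, beside 326 and 408, 89 and 7, 704 and 4, and 74 and 1 with all libraries. For most of these settings, and for single libraries left out, no share over all features is given. The counts show how far the calls depend on processing and are not compared with other features. With a mean of at least 1 the proportion gave 6 and 0, the class 12 and 0 and introns 2226 higher. With a mean of at least 100 the exonic test gave 113 higher, the proportion 28 higher, the class 17 and 0 and introns 86 higher, with fewer features tested. A pseudocount of 20 gave 171 and 27 in the proportion. The proportion of retained-intron and coding transcripts alone gave 14 lower, and the most abundant transcript of each class 42 higher. Centring gave 45 and 4 in the class and 286 and 156 for introns.

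With the replicate block the exonic test gave 201 and 194, the proportion 3 and 0, the class 9 and 0 and introns 844 and 3, and it changed no other count by over 1.5 times. Crossing the numbers at 60 min, tried after seeing the negative correlation there, gave 388 and 505, 49 and 6, 66 and 3, and 845 and 5. Without the 2 labeled libraries of low intronic signal, also chosen after seeing the data, the counts were 652 and 583, 447 and 63, 390 and 12, and 1797 and 8, and the difference in median share was 3.52 instead of 2.36 percentage points.

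Leaving out libraries singly or a whole replicate number gave 0 to 492 and 0 to 628 (exonic), 0 to 239 and 0 to 25 (proportion), 0 to 191 and 0 to 3 (class), 274 to 1157 and 2 to 23 (introns) and 1.06 to 3.67 points (median share). Without either replicate number as a whole, 3 libraries against 3 gave 0 calls in the first 3 tests. The causes of these changes were not tested. The contrast of labeling times gave 0 under every alternative run, which were a pseudocount of 20, a mean of at least 100, a linear term and the block.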
